A study of Drosophila pseudoobscura and Drosophila ananassae and Drosophila yakuba with 13 samples.

Results

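Gene expression in the gonads of Drosophila pseudoobscura, a fruit fly of the obscura group, was compared between testis and ovary across all 11946 genes of the authors' deposited table. Every gene of that table was taken, and they fell into 11686 known only by an identifier (GA and digits), 213 with a gene symbol and 47 small or structural RNA genes. The comparison rests on 5 of the 13 libraries of the series, 2 from testis and 3 from ovary. Flies of both groups were wild type, from strain 14011-0121.94 of the Drosophila Species Stock Center, free of Wolbachia by the design text, grown at 20 °C and dissected as virgin adults of 6 to 10 days. Polyadenylated RNA from gonads without their ducts was sequenced as single reads of 50 bases on either of a pair of sequencer models. The labels do not say whether the libraries of a tissue came from separate flies, so the spread between these libraries may be technical. The p-values rest on that spread as the authors' fit estimated it. Abundant genes with hardly any fold had nearly the same approximate error, as given below. A spread estimated for each gene on its own is therefore not apparent. The purpose stated in the title is to find genes whose expression is biased towards 1 sex.

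The testis holds germ cells that pass through meiosis and are remodelled into sperm, a process that uses many genes expressed in no other tissue. The ovary builds eggs by loading the oocyte with RNA, protein and ribosomes made largely by polyploid nurse cells, so that early development can run on maternal stores. A gene called sex-biased in gonads can therefore be one that works in 1 kind of germ cell, or in the somatic cells around it. In whole organs, fewer cells of a type and less RNA per cell cannot be told apart.

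The table gives for each gene 1 log2 fold change, 1 average expression and 1 likelihood-ratio test by the authors with edgeR, and no value per library. A spread between replicates, a level in each tissue and the depth of a library were therefore not available. The table's name puts testis before ovary, and a positive fold was taken to mean more RNA in testis. The direction was checked against genes of known gonad expression. TrxT, the thioredoxin of the testis, stood at 5.89 on the log2 scale, and dhd, the thioredoxin of the female germline, at -17.3 per the authors' deposited table. Defining genes of spermatocytes, sperm tail, sperm chromatin, chorion, vitelline membrane and yolk were not measured under their symbols, so the tissues could be checked only against such genes. Average expression, over both tissues, is given here as rescaled CPM, after the deposited log2 averages were shifted so that their linear values sum to 1000000. How the 2 testis and 3 ovary libraries were weighted in it is not shown. A greater weight of ovary would raise the averages of ovary-biased genes, and its part in the shares by expression was not tested.

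Most genes differed between the tissues. At an adjusted p under 0.05 in the authors' edgeR test, 73.7% of genes were called, 29.6% as testis-biased (3540 genes) and 44.1% as ovary-biased (5269 genes). Testis-biased genes made up 17.8% of the summed average expression per the authors' deposited table, ovary-biased genes 61.9% and uncalled genes 20.3%. Testis-biased genes had a median average of 21.7 CPM, against 29.2 for ovary-biased and 39.9 for uncalled genes per the authors' deposited table. Over all genes the median fold was -0.85 on the log2 scale per the authors' deposited table, and folds can be read against that shift. How the libraries were scaled for depth is not shown, so the place of 0 on the fold scale, and with it the split between the tissues, could not be checked. With folds centred on the median gene and a minimum of 2-fold, 3540 testis-biased and 4675 ovary-biased calls were left. The authors' calls were kept, so centring could only remove ovary-biased genes. These counts are not the split that a test on centred folds would give.

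An approximate error of a fold was derived for folds of up to 5 on the log2 scale, as the fold divided by the square root of its likelihood-ratio statistic. Its median was 0.64 on the log2 scale over all genes. It was 0.98 for genes of 0.25 to 1 CPM and between 0.62 and 0.73 in the classes from 1 to above 1024 CPM. The smallest folds called were 1.24 towards testis, and -1.31 towards ovary, per the authors' deposited table. Around the threshold, the last genes called were GA28774 at 1.26, GA15261 at 1.24 and GA19526 at -1.31, and the first not called were GA20023 at -1.31, GA22904 at -1.57 and GA15124 at -1.31 per the authors' deposited table. GA22904 needed a larger fold than the others, and its average was 1.09 CPM.

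The direction of bias changed with average expression. Testis bias was most frequent among genes of 4 to 16 CPM, where 44.7% of 1981 genes were testis-biased and 41.9% ovary-biased, and the median fold was 0.20 on the log2 scale per the authors' deposited table. In the class from 1 to 4 CPM 39.4% of 1271 genes were testis-biased and 45.4% ovary-biased. The share of testis bias was then 29.3% of 4204 genes at 16 to 64 CPM, 25.3% of 2752 genes at 64 to 256 and 22.8% of 439 genes at 256 to 1024. Above 1024 CPM 2 of 120 genes (1.67%) were testis-biased. At the low end, 10.7% of 1144 genes at 0.25 to 1 CPM were testis-biased, 54.2% ovary-biased and 35.1% uncalled. Below 0.25 CPM 28 of 35 genes were uncalled. Large folds towards testis that were not called lay mostly below 1 CPM, and their part in these shares was not tested. Across all genes the rank correlation between average expression and fold was 0.043, so the change in direction is not a steady trend. These shares are descriptions over genes, which are not independent replicates.

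**Figure D1:**
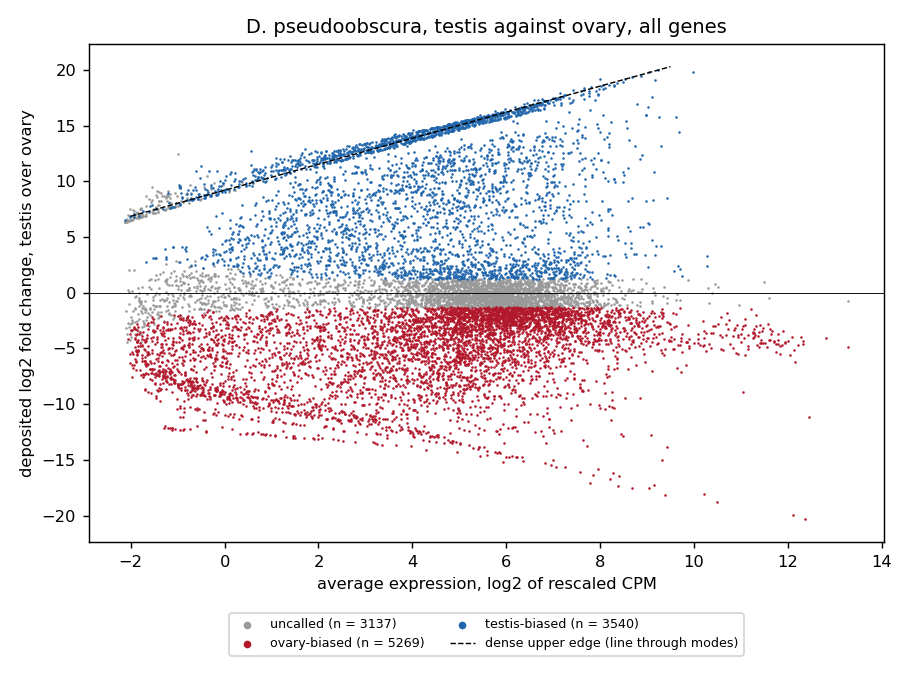
Each point is 1 gene, with its average expression (log2 of the rescaled CPM) on the x axis and its deposited log2 fold change, testis over ovary, on the y axis, coloured by call at an adjusted p under 0.05. The 3540 testis-biased genes reach to 20.0, and many lie on a dense upper edge marked by the dashed line, with some genes above it. At the right end nearly all genes lie below 0.

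Folds towards testis were larger at every level of expression with more than 2 testis-biased genes, apart from the class of 1 to 4 CPM. There the median was 6.39 for testis-biased and -6.43 for ovary-biased genes per the authors' deposited table. At 16 to 64 CPM the medians were 9.94 and -3.72, and at 64 to 256 CPM 8.36 and -2.72, per the authors' deposited table. Folds over 15 on the log2 scale were listed for 367 genes towards testis and 22 towards ovary per the authors' deposited table.

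**Figure D2:**
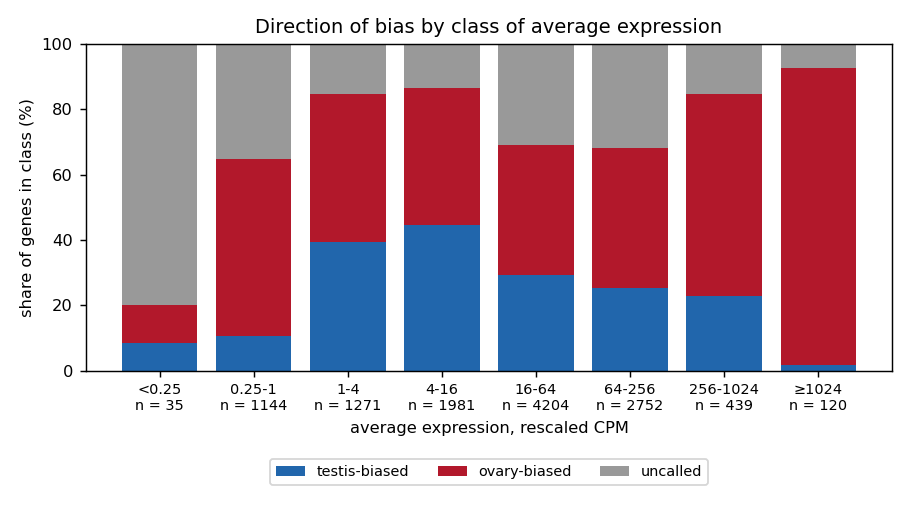
Bars show the share of genes (%, y axis) that were testis-biased, ovary-biased or uncalled in 8 classes of average expression (x axis, rescaled CPM, with the number of genes). Testis bias is most frequent at 4 to 16 CPM, at 44.7%, and falls to 1.67% above 1024 CPM, where ovary bias reaches 90.8%.

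The ovary-biased share rose at the top of the expression range, from 43.0% at 64 to 256 CPM to 62.0% at 256 to 1024 CPM. The 120 genes above 1024 CPM were 1.00% of the genes and 31.4% of the summed average expression. Of them 109 (90.8%) were ovary-biased, against 44.1% of all genes. Their folds were narrowly spread, with a median of -3.97 and quartiles of -4.67 and -3.24 on the log2 scale per the authors' deposited table. The protein-coding genes with symbols in the group are Hsp83, a chaperone; sesB, the ADP/ATP carrier of mitochondria; Cyp1, a cyclophilin; RpL32, a ribosomal protein; ATPsyn-beta, of ATP synthase; Gapdh2, of glycolysis; and exu1, a copy of the gene for the RNA-binding protein Exuperantia. Ovary bias of Gapdh2 was -4.49 with an approximate error of 0.74, and of RpL32 -2.45, on the log2 scale per the authors' deposited table.

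The exceptions at this level were few and can be named in full. The testis-biased genes were exu1 at 2.41 and GA30006 at 3.33 on the log2 scale per the authors' deposited table. The 9 uncalled genes were GA21521, GA16084, Hsp83, the 18S ribosomal RNA gene GA30004, GA15521, GA18673, GA26462, GA15128 and GA18066, with folds from -1.09 to 0.95 per the authors' deposited table. GA18066 was the most abundant gene of all, at 9983 CPM, and had a fold of -0.77 (adjusted p 0.246 by the authors' edgeR test). The next most abundant, GA20951 at 9921 CPM, was ovary-biased at -4.83, per the authors' deposited table. In the same group 4 genes had folds below -15: GA15558, at 5297 CPM, with -20.3, GA22302, at 4395 CPM, with -19.9, GA21503 with -18.8 and GA10627 with -18.0 per the authors' deposited table. Under Bonferroni adjustment the ovary-biased share of the group was 75.8%.

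Among the genes with the largest test statistics, those towards testis were all identifiers, as were 97.8% of all genes. GA16698, GA14917, GA15789, GA12149, GA15259 and GA20300 had folds of 19.1 to 20.0 with averages of 254 to 599.6 CPM, and GA22160 and GA16114 followed at 17.3 and 15.8 per the authors' deposited table. Towards ovary they were GA15558, GA22302, GA10627, GA10847, GA21503, GA24256, dhd and GA13239, with folds from -20.3 to -17.3 per the authors' deposited table. dhd, a thioredoxin that the egg needs to remodel sperm chromatin in D. melanogaster, was the gene with a symbol that had the largest statistic. GA26684, at 1011 CPM and a fold of 19.8, had a statistic of 138.0, against 274.4 for GA16698 with a fold of 20.0 per the authors' deposited table. The table does not show how many reads the lower tissue had, and a fitted fold this large is no bound on the difference.

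A dense edge of genes ran along the large folds towards testis, and it was described after the values were seen. It followed a line that rose by 1.17 in log2 fold for each unit of log2 average expression, from a fold of 9.20 at 1 CPM. The line was no bound, since Obp83g, for example, had a fold of 9.45 at 0.742 CPM. Of the 2399 genes with a fold over 6 towards testis, 1013 (42.2%) lay within 0.5 of this line per the authors' deposited table. Genes of the edge were picked for lying near a line drawn through these same folds. By that choice their folds follow the average expression, so the order of these folds is the order of the averages within the tolerance. The edge held 907 of the 3540 testis-biased genes (25.6%). Of the 42 genes with symbols or of small RNA classes that had a fold over 6, 21 lay on it, among them Scr, Or83a, Gr93a, Acp53Ea, SPR and zen.

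The 2 sides of the table differed in how often a large fold was called. All 1683 genes with a fold below -6 were ovary-biased, while 147 of the 2399 genes with a fold above 6 were not called, per the authors' deposited table. All but 4 of these 147 had an average under 1 CPM, and the highest was 1.29 CPM. At 0.25 to 1 CPM, 79 of 207 genes with such a fold towards testis were called and 323 of 323 towards ovary. In that class, genes with a fold of 7 to 8 had a median likelihood-ratio statistic of 1.30 (0.0696 to 40.2, 64 genes) towards testis and 67.0 (28.5 to 76.3, 82 genes) towards ovary per the authors' deposited table. Equal folds at equal average expression thus came with a far smaller statistic on the testis side. The number of libraries differs as well, 2 from testis and 3 from ovary, and its part in this difference was not tested.

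At higher expression the statistics of the 2 sides came together in level but not in spread. At 16 to 64 CPM, folds of 7 to 8 had a median statistic of 89.7 (31.6 to 106.4, 61 genes) towards testis and 75.8 (69.2 to 81.8, 98 genes) towards ovary per the authors' deposited table. Folds of 14 to 15 in that class ranged from 23.0 to 192.9 in statistic over 187 genes towards testis, and from 139.7 to 167.5 over 10 genes towards ovary, per the authors' deposited table. All of these genes were called.

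**Figure D3:**
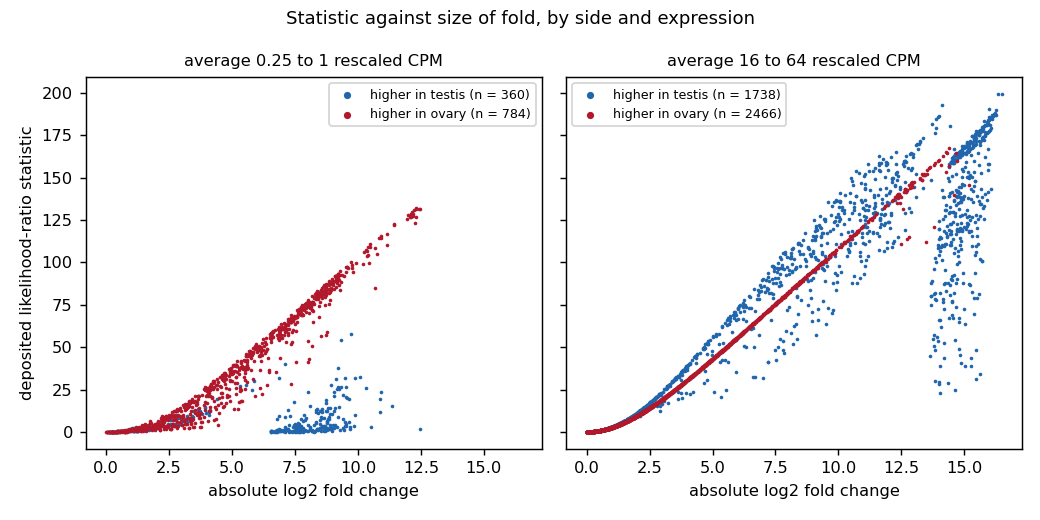
The deposited likelihood-ratio statistic (y axis) is plotted against the absolute log2 fold change (x axis) for genes higher in testis (blue) and in ovary (red), at 0.25 to 1 CPM (left) and 16 to 64 CPM (right). On the left the testis genes with folds of 7 to 8 have a median statistic of 1.30 and the ovary genes one of 67.0, and on the right the ovary genes mostly follow a narrow curve while the testis genes scatter.

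The genes with a large fold towards testis that were not called included 13 of those with symbols or of the small RNA classes, out of 42 with a fold over 6. They were Obp56c, Obp57de, Obp83g, Obp56d, Obp58d and Obp83a of the odorant-binding proteins, the odorant receptor genes Or65b1 and Orco, the rhodopsin gene Rh2, the sex peptide receptor gene SPR, the homeobox genes zen and ftz and the transfer RNA gene GA29481. Their adjusted p-values ran from 0.107 to 0.819 in the authors' edgeR test, at averages of 0.252 to 1.29 CPM. Uro, the gene of urate oxidase, at an average of 0.524 CPM and a fold of -8.59, had an adjusted p of 5.56e-19 in the same edgeR test.

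Genes known only by identifier had calls like those of the whole table, of which they were 97.8%: 29.8% were testis-biased and 43.8% ovary-biased, against 29.6% and 44.1% of all genes. Genes with symbols were testis-biased in 24.4% and ovary-biased in 49.3% of 213 cases. The shares differed by level. At or above 16 CPM 17.6% of 102 genes with symbols and 27.1% of 7409 identifiers were testis-biased, and 60.8% against 42.8% were ovary-biased. From 1 to 16 CPM the shares were 40.6% of 64 genes with symbols and 42.8% of 3174 identifiers towards testis, and 45.3% and 43.0% towards ovary. Below 1 CPM the order was the other way, with 17.0% of 47 genes with symbols and 10.6% of 1103 identifiers testis-biased, and 29.8% against 53.0% ovary-biased. Genes with symbols in this table are those of named families and well-studied loci, and they are not a sample of the genome.

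Of 10 homeobox and segmentation genes, which set the identity of body regions and cells in the embryo, 4 were testis-biased and 0 ovary-biased, against 29.6% and 44.1% of all genes. The testis-biased ones were Scr at 12.5, ap at 9.74, pb at 8.20 and Ubx at 2.02 on the log2 scale per the authors' deposited table. The homeotic genes Antp at -0.89 and lab at -0.24 were not called, nor were en at 1.63, vnd at 1.69, zen at 7.71 and ftz at 7.25 per the authors' deposited table. All 10 had averages between 0.357 and 13.01 CPM. At 1 to 16 CPM 42.8% of genes outside the small RNA classes were testis-biased and 43.1% ovary-biased. At 0.25 to 1 CPM these shares were 10.9% and 53.3%. This grouping, like the others of genes with symbols that follow, was assembled with the values known, and no difference between groups was tested.

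Of 10 signalling genes 6 were ovary-biased and 0 testis-biased, against 44.1% and 29.6% of all genes. They included the genes of the Dpp pathway, in which dpp encodes a BMP ligand, brk a repressor of its target genes and sog an inhibitor of the ligand outside the cell. Their folds were -6.43 for dpp, -10.7 for brk and -7.94 for sog, at averages of 2.39, 2.35 and 0.655 CPM per the authors' deposited table. smo, the signal transducer of the Hedgehog pathway, stood at -2.37 with an approximate error of 0.66 per the authors' deposited table. The receptor genes Sema-1a at -0.81 and Dscam at -0.48 and the adaptor gene dos at -0.19 were not called per the authors' deposited table. Also uncalled was SPR, with a large fold towards testis, 8.19, at an average of 0.527 CPM per the authors' deposited table.

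Of 10 transcription factor genes 3 were testis-biased and 6 ovary-biased, against 29.6% and 44.1% of all genes, so the testis count lay at the share of the whole table. The ecdysone response was represented by EcR, the hormone receptor, at -9.88 and Eip74EF, a gene induced by the hormone, at -6.26, both ovary-biased per the authors' deposited table. ttk, a repressor in D. melanogaster follicle cells and eye, stood at -2.14, and SREBP, of lipid synthesis, at -1.76 per the authors' deposited table. Towards testis stood fru, of the sex determination pathway, at 7.51, chinmo, a gene of male identity in the somatic stem cells of D. melanogaster testis, at 6.83, and kay, the fly Fos gene, at 1.91 per the authors' deposited table. fru was also among the more abundant of these genes, at 286 CPM.

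Of 9 genes of mitosis and chromosomes 6 were not called, against 26.3% of all genes, among them Brca2 at 0.11, mit(1)15 at 0.15, thr, the separase gene, at 0.80 and SuUR at 0.01 per the authors' deposited table. pim, the securin gene, was testis-biased at 1.36 with an approximate error of 0.59 (adjusted p 0.0307 by the authors' edgeR test). cid, of the centromeric histone, at -1.39, and the polarity gene l(2)gl, at -1.60, were ovary-biased per the authors' deposited table. The calls of all 3 rested on folds near the smallest called, and centred on the median gene they were 2.21, -0.54 and -0.76.

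The nucleolar genes Nop56, of the particle that modifies ribosomal RNA, at -5.60 and Surf6 at -4.45, and RpII215, the largest subunit of RNA polymerase II, at -3.76, were ovary-biased per the authors' deposited table. In glycolysis Gapdh2 at -4.49 and Eno, of enolase, at -1.89 were ovary-biased, and Tpi, of triosephosphate isomerase, at -0.56 was not called per the authors' deposited table. The approximate errors were 0.74, 0.64 and 0.61. Of 3 genes of mitochondrial energy, sesB at -5.49 and ATPsyn-beta at -2.79 were ovary-biased and Ucrh, of the respiratory chain, at -0.98 was not called per the authors' deposited table. In these small groups 2 of 3 members each were ovary-biased, against 44.1% of all genes.

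Some pairs of related genes stood on opposite sides. e(y)2, of a complex in transcription and mRNA export, was ovary-biased at -5.86, and its copy e(y)2b was testis-biased at 2.79 with an approximate error of 0.61 per the authors' deposited table. Both had nearly the same average, 23.6 and 23.1 CPM. Among fucosyltransferase genes, fut10C at 4.20 and fut10B at 3.11 were testis-biased, FucT6 at -0.35 was not called, and O-fut1, which modifies Notch, was ovary-biased at -5.32 per the authors' deposited table. The fatty acid desaturase gene Desat1 was ovary-biased at -2.07, while Desat2 at 1.39 and DesatF-gamma at 3.67 were testis-biased per the authors' deposited table. The related decarboxylase genes amd at 7.76 and Ddc, of dopamine synthesis, at 6.05 were both testis-biased per the authors' deposited table. Copies similar in sequence can share reads, and how the authors counted such reads is not given in the sources used here.

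Chemosensory genes are known for odour and taste detection in sensory organs. Of 17 odorant receptor genes 8 were testis-biased (47.1%, against 29.6% of all genes), 5 ovary-biased (29.4%, against 44.1%) and 4 not called, with a median fold of 7.02 and a highest average of 9.72 CPM per the authors' deposited table. That median is the fold of Orco, a gene not called (adjusted p 0.531 by the authors' edgeR test) at 0.264 CPM, so it is no typical size of bias. Of 23 gustatory receptor genes 15 were ovary-biased (65.2%, against 44.1% of all genes), 4 testis-biased and 4 not called, with a median of -2.98 and a highest average of 9.24 CPM per the authors' deposited table. For both receptor families the shares at low levels also apply. Outside the small RNA classes, 42.8% of genes were testis-biased and 43.1% ovary-biased at 1 to 16 CPM, and 10.9% and 53.3% at 0.25 to 1 CPM. The 6 Gr64 genes, of sugar detection, were all ovary-biased, from -6.43 to -1.52, as were the 3 Gr58 genes, from -5.94 to -4.98, per the authors' deposited table. Of 21 odorant-binding protein genes 6 were testis-biased (28.6%, near the 29.6% of all genes), 5 ovary-biased (23.8%, against 44.1%) and 10 not called. They ranged from Obp19c at -11.6 to Obp50b at 11.0, and in average up to 362 CPM for Obp44a, which was testis-biased at 10.6 per the authors' deposited table.

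**Figure D4:**
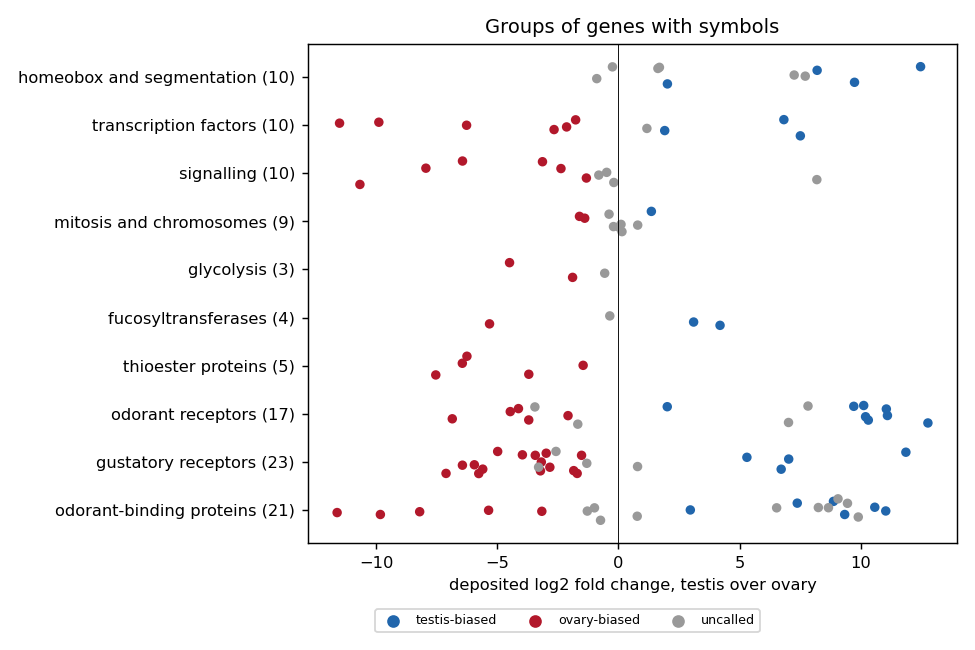
Each point is 1 gene, placed by its deposited log2 fold change (x axis, testis over ovary) in a row for its group (number of genes in brackets), coloured by call; the vertical scatter within a row has no meaning. The homeobox row has 4 testis-biased and 0 ovary-biased genes, the thioester protein row 5 ovary-biased genes, and the receptor rows spread over both sides.

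Neighbouring genes were compared where the symbols allowed it. Of the 213 genes with symbols 143 matched a symbol in the RefSeq annotation of the assembly UCI_Dpse_MV25, and 0 of the identifiers did. They formed 18 pairs of adjacent protein-coding genes, of which 15 had both members called, 12 in the same direction and 3 in opposite directions. Among all calls 40.2% were testis-biased and the rest ovary-biased, and the pairs were not tested against these shares. Some genes, such as Gr58c and Gr64e, stand in more than 1 pair, so the pairs are not independent. Most pairs of 1 direction were copies of a family, such as Mal-A5 and Mal-A6, Tep2 and Tep3, or Tm1 and Tm2. The pairs in opposite directions were TrxT and dhd, at 5.89 and -17.3, Obp50b and Obp50a, at 11.0 and -3.16, and the maltase genes Mal-B1 and Mal-B2, at 2.28 and -6.71, per the authors' deposited table. Ama, of an immunoglobulin-domain protein, and bcd, the anterior determinant of the embryo, are unrelated neighbours and were both ovary-biased, at -13.4 and -9.82, while zen, on the other side of bcd, stood at 7.71 and was not called per the authors' deposited table.

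Markers of cell types other than germ cells were described from lists of D. melanogaster symbols, and their counts stand against 29.6% of all genes testis-biased and 44.1% ovary-biased. Of 19 muscle genes 9 were measured, 7 ovary-biased, 1 testis-biased and 1 not called, with a median fold of -7.84 and averages of 0.435 to 502 CPM per the authors' deposited table. Of 13 gut genes 6 were measured, 3 Mal-A maltases and 3 amylases, and these 6 were ovary-biased, with a median of -3.67 per the authors' deposited table. The maltase genes outside that list were Mal-B2, ovary-biased at -6.71, and Mal-B1, testis-biased at 2.28 per the authors' deposited table. Of 10 accessory gland genes 5 were measured and all were testis-biased, with a median of 8.31 and averages of 0.516 to 0.867 CPM per the authors' deposited table. Under Bonferroni adjustment 2 of these 5 were called, and 0 reached an average of 1 CPM. Of 10 somatic gonad genes 2 were measured, chinmo, testis-biased at 6.83, and EcR, ovary-biased at -9.88, per the authors' deposited table. The only measured marker of sensory neurons, Orco, stood at 7.02 and was not called per the authors' deposited table. For fat body, blood cells and cuticle 0 genes were measured under the listed symbols. A summed level of these markers in each tissue could not be given, and the part of such cells in the calls was not tested.

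Small and structural RNA genes were mostly ovary-biased, 41 of 47 (87.2%), against 44.1% of all genes, with 0 testis-biased. The libraries were selected for polyadenylated RNA, which most of these genes do not make, and the source of the reads listed for them was not tested. Of 27 small nucleolar RNA genes, whose products guide the modification of ribosomal RNA, 26 were ovary-biased. All but 1 of the called ones lay between 0.506 and 5.32 CPM, with folds from -11.4 to -4.24 per the authors' deposited table. The other called gene, GA29907, differed in both values, at 299 CPM and a fold of -2.91, and the uncalled one, GA29941, stood at -0.19 with 1.504 CPM per the authors' deposited table.

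Part of this pattern is shared by other genes of the same low level. At 0.25 to 1 CPM 12 of 12 snoRNA genes and 12 of 12 spliceosomal snRNA genes were ovary-biased, and 53.3% of the 1116 other genes of that level. From 1 to 16 CPM 13 of 14 snoRNA genes were ovary-biased, and 43.1% of 3238 other genes. Folds also differed, with a median of -8.50 for snoRNA and -5.03 for snRNA genes at 0.25 to 1 CPM, and -6.15 for ovary-biased other genes, per the authors' deposited table.

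By class of snRNA, median folds were -5.36 for 4 U1 genes, -4.89 for 6 U2 genes and -2.74 for 2 U6 genes per the authors' deposited table. U1 and U2 RNAs recognise the ends of an intron, and U6 joins the catalytic core of the spliceosome. Copies of a class are nearly identical, can share reads and are uncertain one by one. The 5.8S ribosomal RNA genes GA29358 and GA29359 stood at -5.82 and -5.84 with nearly the same average, 37.6 and 36.9 CPM, per the authors' deposited table, and also cannot be taken as independent. The 18S ribosomal RNA gene stood at -0.02 with 1338 CPM per the authors' deposited table. The microRNA gene mir-2564 was ovary-biased at -8.09 with 0.538 CPM, while mir-2527, at 0.19, and the 3 transfer RNA genes, at -4.45, -3.47 and 7.69, were not called per the authors' deposited table.

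**Figure D5:**
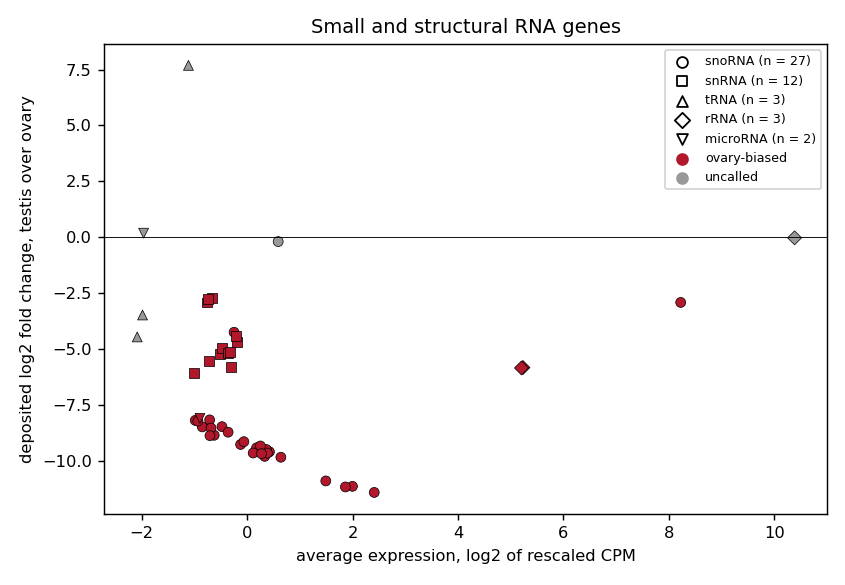
Each point is 1 small or structural RNA gene, with its average expression (log2 of the rescaled CPM) on the x axis and its deposited log2 fold change, testis over ovary, on the y axis; the symbol gives the class and the colour the call. Of 47 genes 41 are ovary-biased, and the snoRNA genes between 0.506 and 5.32 CPM follow a falling line apart from GA29880, at -4.24, and the uncalled GA29941.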

How the data were processed

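RNA of dissected gonads was sequenced by the authors from 2 testis and 3 ovary libraries of D. pseudoobscura, grouped here by sample title. The submitters' processing notes name edgeR, Cuffdiff 2.1.0, Cufflinks 2.1.0, HTSeq 0.5.4p3 and Bowtie2 2.1.0. Which step each did, and with which build, annotation and filter, is not given in the sources used here. Per the file headers, the deposited table holds log2 values (the fold change and the average expression), a score (the likelihood-ratio statistic), the p-value and its false discovery rate, called adjusted p. The authors' deposited p-value equalled the chi-square tail of the statistic with 1 degree of freedom within 0.494%, and the false discovery rate equalled the Benjamini-Hochberg value within 0.746%.

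The linear average, headed CPM, summed to 8.09e+06 times 1000000 in the authors' deposited table and was rescaled to sum to 1000000. A table of CPM would sum to about 1000000 as it stands, so the deposited average is not on that scale. Whether library sizes entered the authors' fit is not shown by the table; if they did not, the folds would carry differences in depth between libraries, and this was not tested. Genes were called at an adjusted p under 0.05. The approximate error of a fold is its size divided by the square root of the statistic; this and the Benjamini-Hochberg code were tested on simulated data. Everything else is a description, with no test across genes. No library depth is known, so no counting interval was computed, and precision rests on 2 and 3 libraries. Named genes were, per rule, the largest folds with an average of at least 32 CPM, the largest statistics, the most abundant genes, those next to the threshold and members of lists or families. Members, lists and groups were chosen with earlier results of these data known, and identifiers could be matched to no list. Of 19 fixed lists 4 had a measured member, and of 8 marker lists 5. The other species were not analysed here. Alternatives were other thresholds, Bonferroni adjustment, centring and filters on low expression. Software was matplotlib 3.10.9, pandas 2.3.3, scipy 1.17.1 and numpy 2.4.6 under Python 3.11.15.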

Additional observations from a re-analysis of the deposited data

How the results depend on the processing

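No paired analysis was possible because the table carries no column per library; for the same reason no library could be left out in turn, and matching lists by product name was not run since no product names were given. Restricted to genes of at least 32 CPM, 1373 genes were testis-biased and 2464 ovary-biased by the same calls, since fewer genes were counted. Under Bonferroni adjustment ovary-biased genes numbered 3279, of them 3176 identifiers and 66 genes with symbols, testis-biased genes with symbols numbered 29, and 75.8% of genes above 1024 CPM were ovary-biased. Over the most abundant 20% of genes, a wider group by construction, that share was 49.1%. With a minimum of 1 CPM 14 snoRNA and 0 snRNA genes were left as ovary-biased, since the others fell below it. Calls of all genes kept their number with a minimum of 2-fold, which was fixed in advance. The smallest folds called were 1.24 and -1.31 on the log2 scale. Testis-biased genes made up 40.2% of calls and 45.2% under Bonferroni adjustment. After centring with that minimum the share was 43.1%, but centring kept the authors' calls and could only remove ovary-biased genes. The median fold of -0.85 is smaller in size than any called fold, so centring could not change the sign of a called gene. Of 224 called genes examined singly, 69 lost their call under Bonferroni adjustment, among them Ubx, kay, e(y)2b, exu1, RpL32, Eno, Desat1, pim, cid and smo, and 21 at an adjusted p under 0.01. Centring changed the sign of 0 called genes and of 20 uncalled ones, whose centred folds were 0.83 for the 18S ribosomal RNA gene GA30004, 0.69 for CecI, 0.36 for Dscam, 0.49 for FucT6, 0.0725 for GA18066, 0.40 for Hsp83, 0.46 for Lhr, 0.65 for Mt2, 0.11 for Obp19a, 0.18 for Pak1, 0.69 for Pk92B, 0.0396 for Sema-1a, 0.30 for Sry-alpha, 0.28 for Tpi, 0.66 for dos, 0.80 for hyd, 0.60 for lab, 0.80 for mbt, 0.66 for GA29941 and 0.38 for vsg. Of 18 counts of list members, 6 moved under Bonferroni adjustment (accessory gland genes from 5 to 2), 2 with a minimum of 1 CPM (accessory gland genes to 0, the testis-biased muscle gene to 0), 1 after centring (the histone gene cid to 0), 1 at an adjusted p under 0.01 (cid again) and 0 with a minimum of 2-fold. Library depth is unknown; of 147 uncalled genes with a fold over 6 towards testis, 143 had an average under 1 CPM.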

Other observations

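Further genes with symbols fell outside the groups described. The thioester protein genes, of innate immunity, were ovary-biased in 5 of 5 cases, against 44.1% of all genes, from Tep2 at -7.53 to Tep6 at -1.45 per the authors' deposited table. Pak3, a kinase of the cytoskeleton, was ovary-biased at -3.76 while its relatives Pak1 at -0.67 and mbt at -0.04 were not called per the authors' deposited table. The rhodopsin genes lay apart, with Rh4 testis-biased at 2.08 and 97.4 CPM, ninaE ovary-biased at -5.19 and 0.478 CPM, and Rh2 at 8.28 not called per the authors' deposited table. alphaKap5A at 8.04 and alphaKap5B at 8.80 were testis-biased per the authors' deposited table. These genes were chosen after their values were seen.

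With a fold over 10 towards testis 2 genes were not called, and the higher of their averages was 0.774 CPM. The highest fold of an uncalled gene was 12.4 per the authors' deposited table. Towards ovary the lowest fold of an uncalled gene was -4.46, in the same table.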
